A study of Mus musculus with 38 samples.

Results

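The genes described here are the electron partners of liver cytochrome P450 enzymes and other enzymes of phase I metabolism: the cytochrome b5 gene Cyb5a, the b5 reductase gene Cyb5r3, the P450-binding membrane protein gene Pgrmc1, the epoxide hydrolase genes Ephx1 and Ephx2, the aldehyde oxidase genes Aox1 and Aox3, and the flavin-containing monooxygenase genes Fmo1 and Fmo5. They were listed by gene symbol, without a cut on any measured value, but with earlier results of these data known. Of the 10 genes on the list, 9 had a listed probe set, out of 17729 genes tested, and 1 is not analysed here.

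Livers of male CD-1 mice, 6 to 8 weeks old, were profiled on Affymetrix mouse 430_2 arrays after compounds were given in the feed. The conazole experiment held mice fed propiconazole at 2500 ppm, triadimefon at 1800 ppm or control feed for 4 or 30 days, with 3 arrays in each of its 6 groups. The phenobarbital experiment held mice fed phenobarbital at 850 ppm or control feed for 4 or 30 days, with 5 arrays in each of its 4 groups. Propiconazole and triadimefon (spelled tridimefon in the labels) are triazole fungicides, and phenobarbital is a barbiturate that activates the nuclear receptor CAR in rodent liver. The labels give mean intakes of 349.6 ± 46.7 mg/kg/day for propiconazole, 257.1 ± 33.5 mg/kg/day for triadimefon and 97.2 ± 5.9 mg/kg/day for phenobarbital, so doses were not matched between compounds. CD-1 is an outbred stock, and the labels call the arrays of a group biological replicates. The conazole groups of a day share their control arrays, and the phenobarbital experiment had its own controls, so that the experiment cannot be told apart from the batch of arrays.

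Phase I enzymes put a reactive or polar group on a foreign or endogenous molecule, by oxidation, reduction or hydrolysis. Microsomal P450 enzymes receive their electrons from NADPH through a flavoprotein reductase, and cytochrome b5, itself reduced with NADH by cytochrome b5 reductase, can donate the second electron of the cycle. Epoxide hydrolases add water to epoxides, many of which P450 enzymes make, while aldehyde oxidases (molybdenum enzymes) and flavin-containing monooxygenases oxidise substrates without a P450. In rodent liver, phenobarbital and related inducers are textbook agents for raising P450 enzymes of the CYP2B family together with microsomal epoxide hydrolase.

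Levels are log2(intensity + 16) after quantile normalization, and a difference is the treated mean minus the mean of the same experiment's controls of the same day, in log2 units. A limma model was fitted to all 38 arrays, and a gene was called where its p, adjusted by the Benjamini-Hochberg method over the 17729 genes, was under 0.05. Errors of differences are standard errors, errors of group means are SDs, and p-values measure the spread between the animals of a group. The number of arrays limits the precision.

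All 9 genes were measured above background on all 38 arrays, and each ranked between the 95.2 and 99.8 percentile of genes by mean signal. Of 5 hepatocyte markers measured, 5 were above background and none was called in any comparison. Alb, Apoa1 and Ttr among them were on average brighter than any of the 9 genes. Whether probe sets so bright can show a change was not tested. Cyp2b10, the main phenobarbital-induced P450, rose in all 6 comparisons by 3.56 to 5.94. On propiconazole day 4 replicate 2, the Gapdh signal at the 3′ end of the transcript exceeded that at the 5′ end by 6.40, against -0.35 to 0.22 on the other 37 arrays, and results that rest on that array are given with and without it. Markers of other cell types and of liver zones moved in some groups: 3 of 7 Kupffer cell and macrophage markers (Adgre1, Marco and Csf1r) rose with triadimefon at day 30 (summed level of the list 12.20 to 13.77 in triadimefon livers, against 11.96 to 12.39 in control livers), and 3 of 6 pericentral hepatocyte markers (Glul, Oat and Axin2) fell with propiconazole at day 30 (13.51 to 13.72 in propiconazole livers, against 13.93 to 14.06 in control livers). Of these markers, Marco was above background on only 2 of 3 triadimefon arrays of day 30 and on 0 of 3 control arrays. Of 4 biliary markers, Epcam and Sox9 rose with propiconazole on both days, and Sox9 rose with triadimefon and with phenobarbital at day 4. Of 6 stellate cell markers, Reln fell with propiconazole at day 4, and Lrat and Des fell at day 30 (summed level 11.41 to 11.61 in propiconazole livers, against 12.00 to 12.44 in control livers). Of 6 sinusoidal endothelium markers, Stab2 and Clec4g fell with triadimefon at day 4 and Lyve1 rose at day 30. The median difference of that list was -0.62 at day 4 and -0.02 at day 30 of triadimefon. Its summed level at day 30 was 11.17 to 11.35 in triadimefon livers, against 11.34 to 11.42 in control livers, so Lyve1 did not stand for the list. Of 5 red blood cell and leukocyte markers, S100a8 rose with propiconazole on both days, and S100a8 and Ptprc rose with triadimefon at day 30 (summed level 10.60 to 10.99 in triadimefon livers, against 7.67 to 8.05 in control livers). Of 3 periportal hepatocyte markers, Hal fell with propiconazole on both days and with triadimefon at day 30. The median difference of the 3 was -0.003 and -0.83 for propiconazole at day 4 and day 30, and -0.22 for triadimefon at day 30. The part of these markers in the results below was not tested, and in bulk liver fewer cells of a type and less RNA per cell cannot be told apart.

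Across the 6 comparisons with control, Cyb5a rose in every one, Ephx1 rose in 4, and Ephx2 and Aox3 fell in conazole groups. At day 4 of propiconazole, 5 of the 9 genes were called (Cyb5a, Ephx1 and Fmo5 higher, Ephx2 and Aox3 lower), beside 13.9% of all genes. At day 30 of propiconazole, 5 were called (Cyb5a, Ephx1 and Fmo1 higher, Ephx2 and Aox3 lower), beside 10.8% of all genes. Triadimefon had 2 called at day 4 (Cyb5a and Ephx1, both higher), beside 3.75% of all genes, and 2 at day 30 (Cyb5a higher, Ephx2 lower), beside 5.4%. Phenobarbital had 3 called at day 4 (Cyb5a, Pgrmc1 and Ephx1, all higher), beside 0.677% of all genes, and 1 at day 30 (Cyb5a, higher), beside 0.479%. The median difference of the 9 genes was 0.16, 0.19, 0.31, 0.14, 0.16 and 0.08 in these 6 comparisons, and the median over all genes lay between -0.002 and 0.03. Treated and control arrays did not overlap for 3, 5, 4 and 5 of the 9 genes in the conazole comparisons, in the same order, beside 16.2%, 24.4%, 19.4% and 21.1% of all genes. They did not overlap for 4 of the 9 genes at day 4 and 4 at day 30 of phenobarbital, beside 5.1% and 4.21% of all genes.

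The conazole calls rest on a spread estimated over both experiments. The limma model was also fitted to the 18 conazole arrays alone. None of the 9 genes was then called in any of the 4 conazole comparisons, beside 224, 302, 18 and 36 of all genes. An unadjusted p under 0.05 was reached by 5, 5, 4 and 4 of the 9 genes (in the same order, propiconazole at day 4 and day 30, triadimefon at day 4 and day 30). The share of all genes under that unadjusted threshold was not counted. With the array of high 3′ signal also left out, a step chosen after seeing the data, Cyb5a, Ephx1 and Ephx2 were called for propiconazole at day 30 (adjusted p = 0.023, 0.034 and 0.033), and the other 3 comparisons still had 0 calls and 4, 4 and 5 unadjusted ones. Over all genes, that fit without the array called 211, 803, 125 and 188 in the 4 conazole comparisons. The 20 phenobarbital arrays alone gave 5 called genes of the 9 at day 4 and 2 at day 30, beside 766 and 305 called over all genes.

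**Figure D1:**
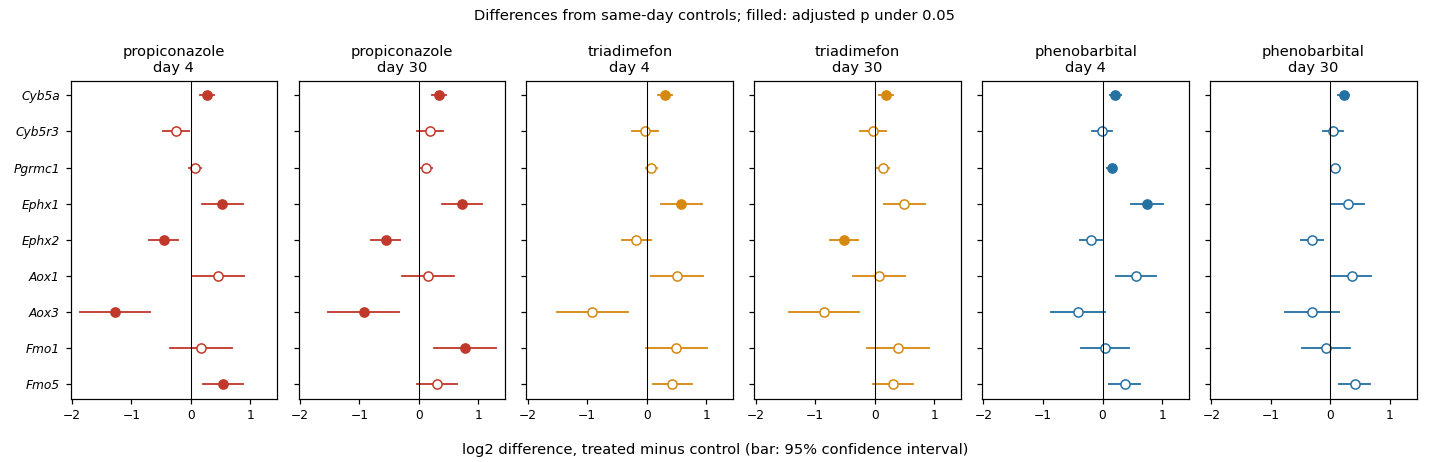
Difference from same-day controls in log2 units (horizontal axis) for the 9 genes (rows) in the 6 comparisons (panels), from the fit to all 38 arrays. Points are differences, bars their 95% confidence intervals, and filled points have an adjusted p under 0.05. Cyb5a is filled in all 6 panels, and Aox3 lies farthest to the left in all but that of phenobarbital at day 30, where Ephx2 is as low (-0.31 each).

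Cyb5a encodes cytochrome b5, the small heme protein of the endoplasmic reticulum that passes electrons to P450 enzymes and to fatty acid desaturases. In the conazole experiment at day 4 its levels were 13.16, 13.04 and 13.04 in propiconazole livers and 13.25, 13.11 and 13.02 in triadimefon livers, against 12.85, 12.70 and 12.90 in control livers. At day 30 they were 13.23, 13.17 and 13.25 in propiconazole livers and 13.08, 13.06 and 13.11 in triadimefon livers, against 12.88, 12.82 and 12.95 in control livers. In both conazole groups on both days, every treated array lay above every control array. In the phenobarbital experiment at day 4 the levels were 13.14, 13.07, 13.11, 13.14 and 13.20 in phenobarbital livers, against 12.90, 12.90, 12.99, 12.87 and 12.93 in control livers. At day 30 they were 13.14, 13.16, 13.18, 13.10 and 13.16 in phenobarbital livers, against 12.92, 12.92, 12.84, 12.98 and 12.97 in control livers. Here too the groups did not overlap on either day.

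The rises of Cyb5a were small, between 1.15-fold and 1.26-fold. They were 0.27 ± 0.06 (adjusted p = 0.003) and 0.34 ± 0.06 (adjusted p = 0.00029) for propiconazole at days 4 and 30. For triadimefon they were 0.31 ± 0.06 (adjusted p = 0.0025) and 0.20 ± 0.06 (adjusted p = 0.042). For phenobarbital they were 0.21 ± 0.05 (adjusted p = 0.016) and 0.22 ± 0.05 (adjusted p = 0.012). Such sizes passed the test because the gene varied little: its SD within groups was 0.06, against a median of 0.23 over the 9260 genes above background, of which 0.486% had a smaller one. That comparison was not limited to genes of like brightness. Cyp3a11, a P450 gene with a probe set as bright, had SDs of 0.02 to 0.05 in the 10 groups. Among the 85 genes called for phenobarbital at day 30, Cyb5a had the smallest difference. In the conazole experiment its deposited intensity was 45.2% to 67.9% of the brightest probe set of the array, and in the phenobarbital experiment 55.0% to 75.7%, and whether so bright a probe set responds in proportion was not tested. The order of the group means placed all 6 treated groups (13.08 to 13.22) above all 4 control groups (12.82 to 12.93), and the gap of 0.16 between the lowest treated group and the highest control group was larger than the SD of either.

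The calls for Cyb5a depended on the scaling, and the direction did not. With arrays centred on their medians instead of quantile normalized, the difference stayed positive in all 6 comparisons but was called only for phenobarbital at day 30, with adjusted p of 0.13, 0.14, 0.43, 0.64 and 0.24 in the other 5 (propiconazole at day 4 and day 30, triadimefon at day 4 and day 30, phenobarbital at day 4). With values as deposited it was called for triadimefon at day 4 and phenobarbital at day 30, with adjusted p of 0.65, 0.077, 0.50 and 0.075 for propiconazole at day 4 and day 30, triadimefon at day 30 and phenobarbital at day 4. Leaving out 1 array at a time kept the calls of propiconazole on both days, triadimefon at day 4 and phenobarbital at day 30. It ended the triadimefon day 30 call without any of 5 of the 6 arrays (adjusted p up to 0.16, without control replicate 2), and the phenobarbital day 4 call without control replicate 4 (adjusted p = 0.05) or phenobarbital replicate 5 (adjusted p = 0.06).

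Cyb5r3 encodes the NADH-dependent reductase that reduces cytochrome b5, and it was not called in any comparison. Its differences ran from -0.25 ± 0.11 (propiconazole day 4, adjusted p = 0.11) to 0.19 ± 0.11 (propiconazole day 30, adjusted p = 0.28), and in the other 4 comparisons from -0.03 to 0.04. At day 4 the levels were 12.42, 11.70 and 12.35 in propiconazole livers and 12.36, 12.49 and 12.31 in triadimefon livers, against 12.31, 12.43 and 12.49 in control livers. The 11.70 belonged to the array of high 3′ signal and was the lowest of all 38 arrays, and without that array the propiconazole day 4 difference was -0.02. At day 30 the levels were 12.39, 12.39 and 12.54 in propiconazole livers, against 12.25, 12.21 and 12.29 in control livers, with no overlap. Without the array of high 3′ signal that day 30 difference of 0.19 had an adjusted p of 0.047. Under phenobarbital the levels spanned 12.05 to 12.26 at day 4 and 12.06 to 12.30 at day 30, against 12.06 to 12.23 and 12.09 to 12.28 in their controls, so that treated and control arrays covered the same range.

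The other probe sets of Cyb5r3 showed how far the array of high 3′ signal stood from the rest. On it, probe set 1422185_a_at read 9.03, against 11.76 to 12.17 on the other 37 arrays, and 1425329_a_at read 5.25, against 10.65 to 11.52. The fourth probe set, 1430734_at, lay below background on all arrays. Of the 14 probe sets of the 9 genes, the array was the lowest of all 38 for those 2, for the Cyb5r3 probe set used here (1422186_s_at) and for that of Ephx2.

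**Figure D2:**
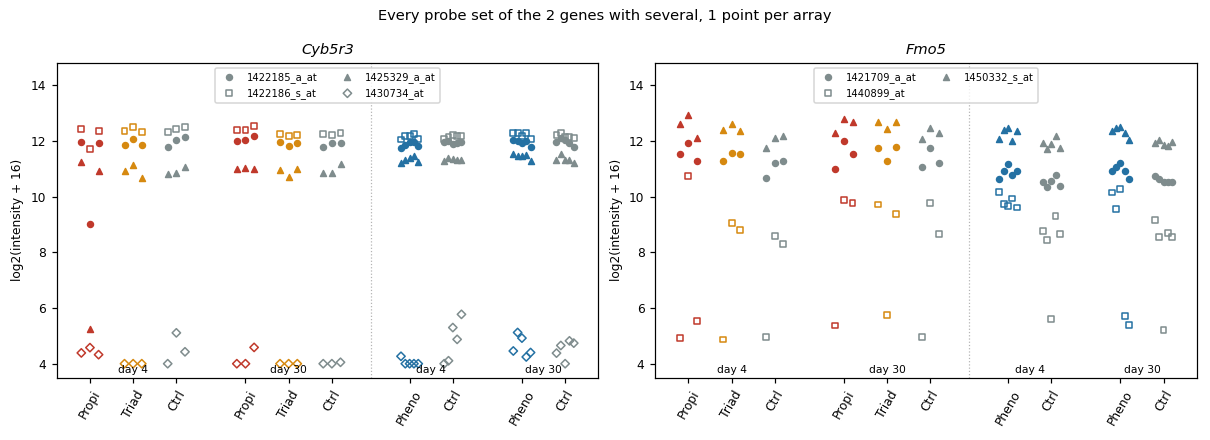
Level of each probe set, as log2(intensity + 16), on each array (1 point per array) for Cyb5r3 (4 probe sets) and Fmo5 (3 probe sets), by treatment and day. Symbols separate probe sets, and 2 Cyb5r3 probe sets drop to 9.03 and 5.25 on 1 propiconazole day 4 array, while the Fmo5 probe set 1440899_at lies either at 5.74 and below or at 8.32 and above.

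Pgrmc1 encodes a heme-binding membrane protein of the endoplasmic reticulum that binds P450 enzymes. Its levels at day 4 of phenobarbital were 13.26, 13.25, 13.28, 13.27 and 13.32 in treated livers, against 13.12, 13.10, 13.12, 13.10 and 13.15 in control livers. The groups did not overlap, and the difference of 0.16 ± 0.04, a 1.11-fold rise, was called (adjusted p = 0.038). Its difference was positive in all 6 comparisons, at 0.06 to 0.14 in the other 5 (adjusted p = 0.083 to 0.64), except that it was -0.09 for propiconazole at day 4 with values as deposited and -0.06 for triadimefon at day 4 with median centring. Without the array of high 3′ signal, the day 30 differences of 0.13 for propiconazole and 0.14 for triadimefon had adjusted p of 0.046 and 0.049. Pgrmc1 varied even less within groups than Cyb5a (SD 0.04, smaller in 0.14% of genes above background, again of any brightness), and its phenobarbital day 4 difference was the smallest of the 120 called. That call was lost without any of 9 of the 10 arrays (adjusted p up to 0.12, without phenobarbital replicate 5) and under median centring (adjusted p = 0.46). The deposited intensity of Pgrmc1 was 52.9% to 80.0% of the brightest probe set of the array, and whether it responds in proportion was not tested either.

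Ephx1 encodes microsomal epoxide hydrolase, which turns xenobiotic epoxides into dihydrodiols and is a textbook phenobarbital-inducible enzyme. Its promoter is shown because the gene rose with all 3 compounds. The window runs from 250 bases before to 50 bases after the gene's start, at chr1:181017520-181017819 on the minus strand (RefSeq, GRCm38.p6), 5′ to 3′, with capitals marking matches to the letters of a TATA box (TATAAA) and of a CCAAT box (CCAAT):

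Ephx1: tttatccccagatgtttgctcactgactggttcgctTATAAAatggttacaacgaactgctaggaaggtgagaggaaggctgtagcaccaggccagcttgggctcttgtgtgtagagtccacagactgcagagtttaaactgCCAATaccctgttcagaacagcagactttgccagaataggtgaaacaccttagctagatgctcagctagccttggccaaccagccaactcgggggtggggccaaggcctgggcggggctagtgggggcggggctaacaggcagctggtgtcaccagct

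The TATAAA match began 214 bases and the CCAAT match 108 bases before the start. Over 32851 mouse promoter windows of the same length, 13.6% held TATAAA and 37.4% held CCAAT on either strand. Neither nuclear receptor half-site searched, AGGTCA (16.3% of promoters) or AGTTCA (14.0% of them), nor the antioxidant response element core TGACNNNGC (12.4%), was in this window on either strand. A match is a run of letters and not a shown binding site, and a missing one says nothing about more distant elements.

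At day 4 Ephx1 stood at 13.09, 12.59 and 12.43 in propiconazole livers and at 12.53, 13.02 and 12.72 in triadimefon livers, against 12.02, 12.26 and 12.25 in control livers. At day 30 it stood at 12.90, 12.93 and 12.72 in propiconazole livers and at 12.78, 12.84 and 12.25 in triadimefon livers, against 12.08, 12.14 and 12.16 in control livers. In every conazole group all arrays lay above all controls of that day. Under phenobarbital at day 4 its levels were 12.66, 12.84, 12.84, 12.56 and 12.72 in treated livers, against 11.73, 11.62, 12.38, 12.18 and 12.01 in control livers, again without overlap. At day 30 they were 12.50, 12.46, 12.63, 12.18 and 12.51 in phenobarbital livers, against 12.01, 12.09, 12.33, 12.16 and 12.20 in control livers, and the lowest treated array lay within the control range.

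The largest rises of Ephx1 were 0.74 ± 0.13 for phenobarbital at day 4 (1.67-fold, adjusted p = 0.0017) and 0.73 ± 0.17 for propiconazole at day 30 (1.66-fold, adjusted p = 0.0043). It also rose by 0.53 ± 0.17 for propiconazole at day 4 (adjusted p = 0.033) and by 0.58 ± 0.17 for triadimefon at day 4 (adjusted p = 0.046). The differences of 0.50 ± 0.17 for triadimefon at day 30 (adjusted p = 0.079) and 0.30 ± 0.13 for phenobarbital at day 30 (adjusted p = 0.63) were not called. The phenobarbital difference was 0.45 ± 0.18 lower at day 30 than at day 4, with a 95% interval from -0.82 to -0.07, and this change did not pass the test either (unadjusted p = 0.021, adjusted p = 1). The phenobarbital day 4 call was kept without any 1 array and under every alternative run for it. The propiconazole day 4 call was lost without any of 4 of the 6 arrays (adjusted p up to 0.18, without propiconazole replicate 1), and the triadimefon day 4 call without each of the 6 (0.052 to 0.20), while triadimefon at day 30 was called without its replicate 3 (0.68, adjusted p = 0.024).

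**Figure D3:**
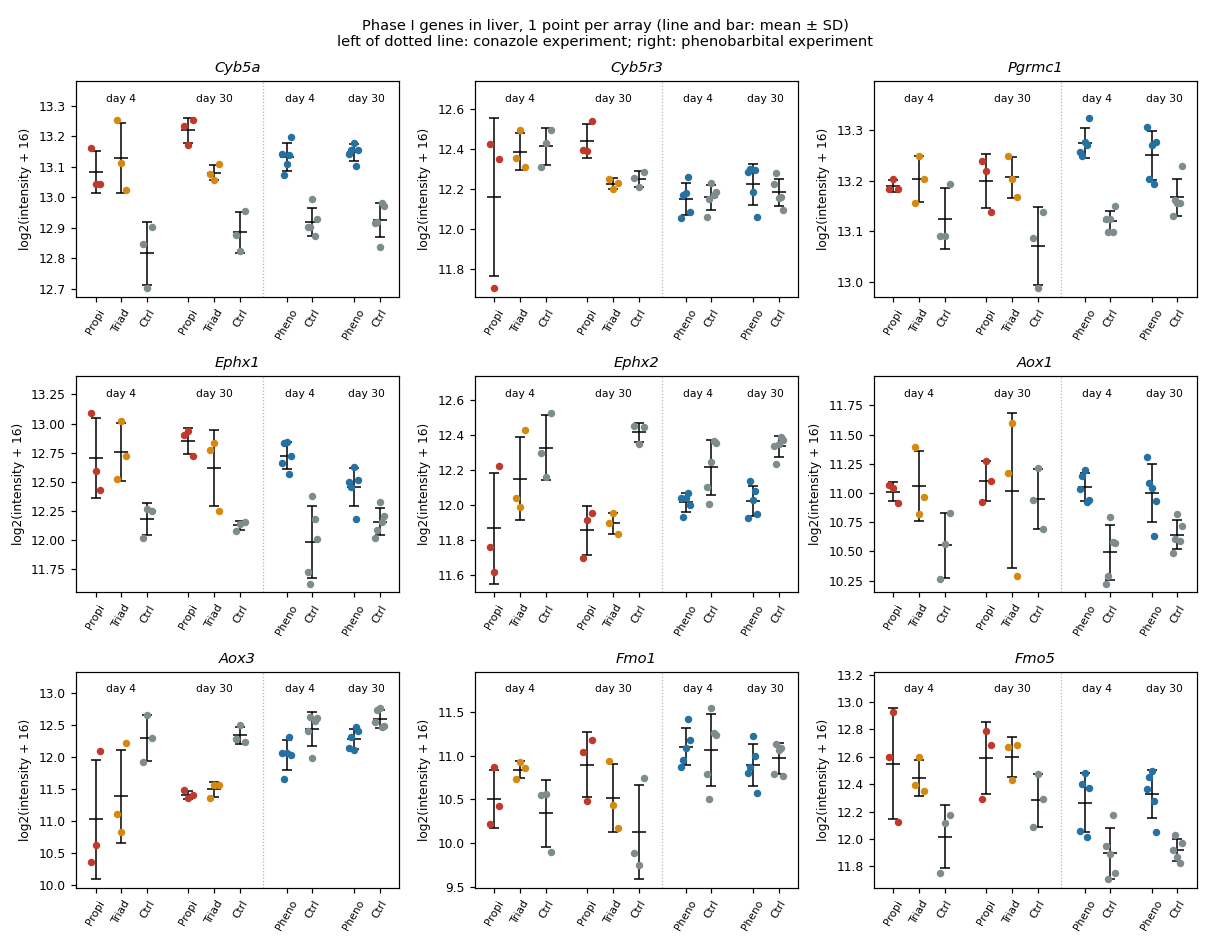
Level of the 9 genes, as log2(intensity + 16), on each of the 38 arrays (1 point per array), by treatment and day, with the conazole experiment left of the dotted line and the phenobarbital experiment right of it. Lines and bars are group means ± SD, and each panel has its own vertical scale. Ephx1 sits above its controls in all conazole groups and Ephx2 below them at day 30 in all 3 treatments.

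Ephx2 encodes soluble epoxide hydrolase, which hydrolyses epoxides of fatty acids such as the epoxyeicosatrienoic acids. It was called lower in 3 comparisons, while Ephx1 was only called higher. At day 30 its levels were 11.70, 11.92 and 11.96 in propiconazole livers and 11.90, 11.95 and 11.84 in triadimefon livers, against 12.45, 12.35 and 12.44 in control livers. Under phenobarbital at day 30 they were 11.93, 12.14, 12.03, 12.08 and 11.95 in treated livers, against 12.33, 12.23, 12.35, 12.39 and 12.37 in control livers. In all 3 treatments every day 30 array lay below every control array. At day 4 the groups overlapped: levels were 11.76, 11.62 and 12.22 in propiconazole livers and 12.04, 11.99 and 12.42 in triadimefon livers, against 12.30, 12.16 and 12.52 in control livers. The phenobarbital arrays of day 4 spanned 11.93 to 12.07 and their controls 12.00 to 12.36, an overlap as well.

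Ephx2 fell by 0.56 ± 0.12 with propiconazole at day 30 (adjusted p = 0.002) and by 0.52 ± 0.12 with triadimefon at day 30 (adjusted p = 0.008). It fell by 0.46 ± 0.12 with propiconazole at day 4 (adjusted p = 0.0093), but this call was lost without the array of high 3′ signal (-0.34, adjusted p = 0.08) and without control replicate 3 (adjusted p = 0.063). The differences of -0.18 ± 0.12 for triadimefon at day 4 (adjusted p = 0.46), -0.20 ± 0.09 for phenobarbital at day 4 (adjusted p = 0.46) and -0.31 ± 0.09 for phenobarbital at day 30 (adjusted p = 0.18) were not called. Fitted to the phenobarbital arrays alone, the last of these had an adjusted p of 0.011. Both day 30 conazole calls were kept without any 1 array, and on conazole arrays alone their adjusted p was 0.077 for propiconazole and 0.18 for triadimefon. The order of the group means put all 4 control groups (12.21 to 12.41) above all 6 treated groups (11.86 to 12.15).

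Aox1 and Aox3 encode aldehyde oxidases, cytosolic molybdenum enzymes that oxidise aldehydes and nitrogen-containing aromatic rings. They are neighbouring genes on chromosome 1, and in all 6 comparisons the difference was positive for Aox1, which was never called, and negative for Aox3. Both promoters are shown because of this contrast, 5′ to 3′ on the plus strand, at chr1:58029719-58030018 for Aox1 and chr1:58112886-58113185 for Aox3 (RefSeq, GRCm38.p6). Capitals mark the reverse of the CCAAT box (ATTGG):

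Aox1: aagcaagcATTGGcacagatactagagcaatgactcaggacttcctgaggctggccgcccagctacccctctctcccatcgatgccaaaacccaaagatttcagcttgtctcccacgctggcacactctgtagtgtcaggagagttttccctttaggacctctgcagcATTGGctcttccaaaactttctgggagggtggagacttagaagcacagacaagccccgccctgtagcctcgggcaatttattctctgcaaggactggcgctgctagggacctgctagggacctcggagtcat

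Aox3: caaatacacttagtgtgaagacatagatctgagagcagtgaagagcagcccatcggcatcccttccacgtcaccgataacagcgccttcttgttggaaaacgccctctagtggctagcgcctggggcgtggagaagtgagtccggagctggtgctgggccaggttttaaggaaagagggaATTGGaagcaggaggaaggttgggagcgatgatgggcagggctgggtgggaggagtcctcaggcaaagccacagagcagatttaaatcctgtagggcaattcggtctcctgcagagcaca

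Aox1 held 2 such matches, 242 and 82 bases before the start, and Aox3 held 1, 70 bases before it. Neither window held any of the other motifs searched for Ephx1, on either strand.

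Aox3 had the widest difference from control of the 9 genes. At day 30 its levels were 11.48, 11.36 and 11.41 in propiconazole livers and 11.36, 11.56 and 11.57 in triadimefon livers, against 12.29, 12.50 and 12.24 in control livers. The 6 conazole arrays spanned 11.36 to 11.57 and all lay below the controls. At day 4 the levels were 10.36, 10.63 and 12.10 in propiconazole livers and 11.11, 10.83 and 12.22 in triadimefon livers, against 11.93, 12.66 and 12.31 in control livers. Replicate 3 of each conazole lay within the control range and the other 2 arrays of each lay far below it. Under phenobarbital the levels were 12.07, 11.66, 12.07, 12.32 and 12.04 in treated livers at day 4, against 12.41, 12.63, 12.00, 12.57 and 12.61 in control livers. At day 30 they were 12.15, 12.32, 12.11, 12.47 and 12.41 in phenobarbital livers, against 12.55, 12.75, 12.76, 12.48 and 12.48 in control livers. The phenobarbital groups overlapped at day 4, and at day 30 the highest treated array lay just below the lowest control.

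Aox3 fell by 1.27 ± 0.29 with propiconazole at day 4, to 0.414 of the control level (adjusted p = 0.004), and by 0.93 ± 0.29 at day 30, to 0.526 of it (adjusted p = 0.036). The day 4 call was kept without any 1 array, with a difference of -1.07 without the array of high 3′ signal, and the day 30 call was lost without each of the 6 arrays (adjusted p = 0.06 to 0.11). The differences for triadimefon, -0.91 ± 0.29 at day 4 (adjusted p = 0.071) and -0.85 ± 0.29 at day 30 (adjusted p = 0.083), were not called, and the first was called without the array of high 3′ signal (adjusted p = 0.047). Those for phenobarbital were -0.41 ± 0.22 and -0.31 ± 0.22 (adjusted p = 0.60 and 1). The propiconazole change minus the phenobarbital change at day 4 was -0.86 ± 0.37, with a 95% interval from -1.61 to -0.11, and this did not pass the test (unadjusted p = 0.026, adjusted p = 0.21). On conazole arrays alone the propiconazole calls were lost (adjusted p = 0.10 and 0.25). The errors of 0.29 in the fit to all arrays come from the pooled spread, and the groups themselves differed in spread. At day 4 the SD of Aox3 was 0.93 in propiconazole livers and 0.36 in control livers. At day 30 it was 0.06 in propiconazole livers and 0.14 in control livers.

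Aox1 was not called in any comparison. Under phenobarbital at day 4 its levels were 11.04, 11.14, 11.20, 10.92 and 10.94 in treated livers, against 10.22, 10.29, 10.80, 10.58 and 10.57 in control livers. These groups did not overlap, and the difference was 0.56 ± 0.16 (adjusted p = 0.13, or 0.0096 when fitted to the phenobarbital arrays alone). At day 4 the levels were 11.07, 11.05 and 10.92 in propiconazole livers and 11.39, 10.82 and 10.97 in triadimefon livers, against 10.27, 10.56 and 10.83 in control livers. The propiconazole arrays all lay above the controls and the triadimefon arrays reached into their range, with differences of 0.46 ± 0.21 (adjusted p = 0.15) and 0.51 ± 0.21 (adjusted p = 0.18). At day 30 the differences were 0.15 for propiconazole, 0.07 for triadimefon and 0.36 ± 0.16 for phenobarbital (adjusted p = 0.74, 0.94 and 0.68). The triadimefon arrays of day 30 were widely spread, at 11.17, 11.60 and 10.29, against 10.94, 11.21 and 10.69 in control livers, and without replicate 2 that difference was -0.22.

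Fmo5 encodes a flavin-containing monooxygenase that oxidises ketones and is abundant in liver. Its promoter is shown because the gene lay above control in all 6 comparisons, 5′ to 3′ on the plus strand at chr3:97628769-97629068 (RefSeq, GRCm38.p6). Capitals mark matches of letters only, to the reverse of the CCAAT box (ATTGG), 211 bases before the start, and to the reverse of the TATA box letters (TTTATA), 195 bases before it:

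Fmo5: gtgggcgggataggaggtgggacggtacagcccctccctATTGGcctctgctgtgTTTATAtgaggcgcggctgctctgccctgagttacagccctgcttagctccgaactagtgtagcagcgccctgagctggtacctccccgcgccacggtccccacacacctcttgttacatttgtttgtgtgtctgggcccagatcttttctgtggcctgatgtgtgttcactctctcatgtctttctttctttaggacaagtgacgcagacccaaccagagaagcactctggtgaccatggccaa

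This window held neither half-site nor the antioxidant response element core. Of the 9 genes, 5 had a promoter in the table, and in the window of Pgrmc1, the one not shown, the antioxidant response element core was the only match.

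At day 4 Fmo5 read 12.60, 12.92 and 12.12 in propiconazole livers and 12.39, 12.60 and 12.35 in triadimefon livers, against 11.75, 12.12 and 12.17 in control livers. All triadimefon arrays lay above the controls, and 1 propiconazole array lay among them. At day 30 it read 12.29, 12.79 and 12.69 in propiconazole livers and 12.67, 12.43 and 12.69 in triadimefon livers, against 12.08, 12.47 and 12.29 in control livers, with overlap in both. Under phenobarbital at day 4 it read 12.06, 12.40, 12.48, 12.01 and 12.37 in treated livers, against 11.95, 11.71, 11.89, 12.17 and 11.75 in control livers. At day 30 it read 12.36, 12.45, 12.49, 12.28 and 12.05 in phenobarbital livers, against 11.92, 12.03, 11.86, 11.83 and 11.97 in control livers. The phenobarbital groups overlapped at day 4 and not at day 30.

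With the probe set used here, the difference of Fmo5 was positive in every comparison, also under both other scalings. It was called once, at 0.53 ± 0.16 for propiconazole at day 4 (1.45-fold, adjusted p = 0.028), and without the array of high 3′ signal that call was lost (0.34, adjusted p = 0.21). It was also lost without control replicate 1 (adjusted p = 0.16) or propiconazole replicate 1 (adjusted p = 0.053). The other differences were 0.31 for propiconazole at day 30, 0.43 and 0.31 for triadimefon at day 4 and day 30, and 0.37 and 0.41 for phenobarbital at day 4 and day 30 (adjusted p = 0.14 to 0.30). On the phenobarbital arrays alone the day 4 difference had an adjusted p of 0.047. A second probe set, 1421709_a_at, was also above background on all arrays. In the limma fit of all probe sets its difference for propiconazole at day 4 was 0.51 ± 0.21 and was not called (adjusted p = 0.10). The probe set used had an adjusted p of 0.032 there, and 1440899_at had the opposite sign (-0.23 ± 1.60). In the other comparisons 1421709_a_at was positive (0.18 to 0.39) and not called. The third, 1440899_at, was below background on 11 arrays (at most 5.74) and at 8.32 or more on the other 27, with arrays of both kinds in 9 of the 10 groups.

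Fmo1 encodes the flavin-containing monooxygenase that oxidises nitrogen and sulfur atoms of many drugs. It was called with propiconazole at day 30, where its levels were 11.04, 10.48 and 11.18, against 9.88, 9.75 and 10.74 in control livers. The groups overlapped, and the rise of 0.77 ± 0.25 (1.71-fold, adjusted p = 0.045) was lost without any of 4 of the 6 arrays (adjusted p up to 0.21, without control replicate 2) and with median centring (adjusted p = 0.089). Its differences elsewhere were 0.16 for propiconazole at day 4, 0.50 and 0.39 for triadimefon at day 4 and day 30, and 0.03 and -0.08 for phenobarbital at day 4 and day 30 (adjusted p = 0.30 to 1), of which the first had a negative sign with values as deposited or without the array of high 3′ signal (-0.02) and the last a positive one with median centring. At day 4 it read 10.21, 10.87 and 10.43 in propiconazole livers and 10.73, 10.92 and 10.86 in triadimefon livers, against 10.55, 10.56 and 9.90 in control livers. The triadimefon arrays of day 4 all lay above the controls. The phenobarbital experiment's controls averaged 11.07 ± 0.42 and 10.97 ± 0.18 at day 4 and day 30 (SD, n = 5), against 10.34 ± 0.38 and 10.12 ± 0.54 in the conazole experiment's controls (SD, n = 3), and at day 30 these control groups did not overlap. The propiconazole change at day 30 minus the phenobarbital change was 0.85 ± 0.32 (unadjusted p = 0.012, adjusted p = 0.17).

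No difference between compounds or between days was called for any of the 9 genes in the limma fit. Propiconazole minus triadimefon gave 0 calls on either day, with 2 genes at day 4 and 1 at day 30 at an unadjusted p under 0.05, where 1.84% and 3.9% of all genes were called. With values as deposited, 6 of the 9 were called lower in propiconazole than in triadimefon livers at day 4 (Cyb5a, Cyb5r3, Ephx2, Aox1, Aox3 and Fmo1). In that setting the median gene was shifted in both day 4 comparisons with control (-0.16 for propiconazole and 0.17 for triadimefon). The share of all genes called between compounds was not counted under the alternatives, so these 6 cannot be set beside it. Leaving out 1 array gave 2 at most, without propiconazole replicate 3. In the limma fit to all arrays, the smallest adjusted p at day 4 was that of Ephx2, lower in propiconazole than in triadimefon livers (-0.28 ± 0.12, adjusted p = 0.18). At day 30 it was that of Cyb5a, higher in propiconazole livers by 0.14 ± 0.06 (adjusted p = 0.20). The 95% intervals of the propiconazole minus triadimefon difference were -0.39 to 0.29 for Ephx1 and -0.95 to 0.23 for Aox3 at day 4, so differences of such sizes are within the error. Day 30 minus day 4 changes gave 0 calls for each compound, with 1 gene each at an unadjusted p under 0.05, where 1.95%, 1.31% and 0.00564% of all genes were called for propiconazole, triadimefon and phenobarbital. The smallest adjusted p there was that of Cyb5r3 under propiconazole (0.12), whose day 4 mean includes the array of high 3′ signal. Conazole changes minus phenobarbital changes gave 0 calls as well, with 1 gene on each day for propiconazole and 0 for triadimefon at an unadjusted p under 0.05, where 1.83% and 1.92% of all genes were called for propiconazole and 0.0451% and 0.451% for triadimefon.

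Of the other phase I genes on 7 lists, 66 were measured, among them the remaining b5 proteins and reductases, epoxide hydrolases, molybdenum enzymes, alcohol and aldehyde dehydrogenases and carbonyl, aldo-keto and quinone reductases. With propiconazole 8 were called higher and 8 lower at day 4, or 24.2%, beside 13.9% of all genes. At day 30 of propiconazole 7 were higher and 3 lower, or 15.2%, beside 10.8%. Without the array of high 3′ signal, the day 4 calls of Cyb5r1, Cyb5r4, Suox, Aldh1a7, Aldh2 and Adh4 were among those lost. How many of the 66 genes were called without that array was not counted. With triadimefon 3 were higher and 1 lower at day 4, or 6.06%, beside 3.75% of all genes. At day 30 of triadimefon 2 were higher, or 3.03%, beside 5.4%. With phenobarbital 0 were called at day 4 in the limma fit, where 10 had an unadjusted p under 0.05, beside 0.677% of all genes called. At day 30 of phenobarbital 1 was higher, or 1.52%, beside 0.479%. The median differences of these 66 genes lay between -0.04 and 0.03 in all 6 comparisons.

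Among the other b5 proteins, Cyb5r1, a relative of Cyb5r3, rose by 0.91 ± 0.24 with propiconazole at day 4 (adjusted p = 0.012), and that call was lost without the array of high 3′ signal (0.64, adjusted p = 0.11). Cyb5b, the b5 of the outer mitochondrial membrane, fell by 0.39 ± 0.11 with propiconazole at day 30 (adjusted p = 0.02), a call lost with control replicate 3 left out (adjusted p = 0.12). None of the 9 other genes of that list was called with triadimefon or phenobarbital in the limma fit. Among the 10 other molybdenum enzyme genes, Mtarc2, an amidoxime reductase gene that works with cytochrome b5, fell by 0.44 ± 0.08 with propiconazole at day 30 (adjusted p = 0.00049), and Suox, the sulfite oxidase gene, by 0.60 ± 0.20 at day 4 (adjusted p = 0.044). Without the array of high 3′ signal the Suox difference was -0.38 (adjusted p = 0.29). The Suox call was also lost without propiconazole replicate 1 (0.15) and without each control array (0.062 to 0.11). Of the other epoxide hydrolases, Lta4h alone was called, at 0.42 ± 0.14 for propiconazole at day 4 (adjusted p = 0.035). That Lta4h difference was 0.08 (adjusted p = 0.81) with values as deposited and 0.27 (adjusted p = 0.17) with median centring.

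The reductases and dehydrogenases held the widest changes of the other lists. Cbr1, a carbonyl reductase gene, averaged 10.88 ± 0.15 in propiconazole livers at day 30 and 9.43 ± 0.25 in control livers (SD, n = 3 each). The difference was 1.44 ± 0.22, or 2.72-fold, with an adjusted p of 6.6e-05. Akr1d1, the steroid 5-beta-reductase gene of bile acid synthesis, rose in all 4 conazole comparisons, by 0.78 to 1.32, of which the triadimefon day 30 call was lost without any of 4 arrays (adjusted p up to 0.091, without control replicate 2). Aldh1a7, an aldehyde dehydrogenase gene, rose by 0.98 and 1.25 with propiconazole at day 4 and day 30 and by 1.08 with triadimefon at day 30. The first call was lost without the array of high 3′ signal (adjusted p = 0.051) or control replicate 1 (0.072). The last was lost without control replicate 2 (0.071) or triadimefon replicate 3 (0.051). Aldh3a2, the fatty aldehyde dehydrogenase gene, rose by 1.72 ± 0.43 with propiconazole at day 30, while Adh4, an alcohol dehydrogenase gene, fell by 0.62 and 0.80 at day 4 and day 30. The day 4 call of Adh4 was lost without the array of high 3′ signal (adjusted p = 0.12), propiconazole replicate 3 (0.065) or each control array (0.071 to 0.13). Its day 30 call was lost without propiconazole replicate 2 (0.12) or control replicate 1 (0.055). Nqo1, the quinone reductase gene, was below background on all control arrays of the conazole experiment. It was at least 1.53-fold higher with propiconazole at day 30 (2 of 3 arrays above background, adjusted p = 0.00062) and at least 1.45-fold higher with triadimefon at day 4 (adjusted p = 0.011). The triadimefon call of Nqo1 was lost without control replicate 1 (adjusted p = 0.063) and without triadimefon replicate 2 (0.068).

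On conazole arrays alone, several of these calls were lost. The adjusted p was then 0.051 for Akr1d1 with propiconazole at day 30, and 0.056 and 0.22 with triadimefon at day 4 and day 30. It was 0.15 for Cbr1 and 0.16 for Nqo1 with triadimefon at day 4. For Aldh1a7 it was 0.073 with propiconazole at day 4 and 0.12 with triadimefon at day 30, and for Adh4 0.19 and 0.11 with propiconazole at day 4 and day 30. The propiconazole calls of Cyb5r1 (0.16), Cyb5b (0.11), Suox (0.23) and Lta4h (0.21) were lost there too.

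The genes whose deviation from the same-day controls most resembled that of 3 of the genes, one from each of 3 enzyme classes, were taken over the 38 arrays from 8586 genes above background. For Ephx1 they were the glutathione S-transferase genes Gstm4 (Pearson r = 0.91), Gstm2 (0.88) and Gsta2 (0.87). For Aox1 they were Irs1 (0.81), Akr1c14 (0.79) and Ugt2b36 (0.69), and for Fmo5 Col15a1 (0.81), Sgpl1 (0.79) and Hacd1 (0.78). These values describe arrays that share groups and scaling, and the highest of many candidates is high by selection.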

How the data were processed

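Liver RNA of 38 mice in 10 groups was hybridised to 1 array each. The authors deposited linear intensities, and 21.15% of the values were under 0. Per the labels' protocols, total RNA (4 ug) was amplified and biotin-labelled, and the summarising software is not given in the sources. Array medians ran from 12.5 to 36.1. Groups were taken from the sample titles.

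Intensities were quantile normalized over the 38 arrays, and negative values were replaced by 0. The log2 of the quantile-normalized intensity plus 16 was used, which understates differences of dim genes. Of 45101 probe sets, the platform annotation gives 34958 a single symbol and 932 several, and 9211 are not listed. The probe set with the highest mean stood for each gene, and 465 genes with a constant value were left out, leaving 17729. An intensity of 55.1, which 95% of 38 olfactory receptor genes did not exceed on average, was the background. A fold against a group below background is a bound against that level.

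limma 3.58.1 in R 4.3.3 fitted 1 mean per group to all arrays, with an intensity trend and two-sided tests (28 residual and 2.91 prior degrees of freedom), and was tested on simulated data. The genes and lists were chosen with earlier results of these data known. All 9 measured genes are named, and of each list up to 4 others with the smallest adjusted p among those called, described here in part. One gene of the list is not reported here. Promoter windows are from RefSeq, GRCm38.p6. Alternatives were values as deposited, median centring, a pseudocount of 64, genes above background only, all probe sets, other sets of arrays, the replicate number as a block and each array left out.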

Additional observations from a re-analysis of the deposited data

How the results depend on the processing

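No direction of a called difference of the 9 genes was reversed in any alternative. A pseudocount of 64 changed none of the 54 differences' calls, and keeping only genes above background added 2. The replicate numbers did not pair the arrays (22 pairs, correlations of deviations from -0.10 to 0.16, 2 over 0.1), and the replicate block ended 2 calls of the 9 genes, Fmo1 for propiconazole at day 30 (adjusted p = 0.052) and Pgrmc1 for phenobarbital at day 4 (0.061). The causes of the shifts below were not tested.

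Counts of the 9 genes called follow for propiconazole at day 4 and day 30, triadimefon at day 4 and day 30, and phenobarbital at day 4 and day 30 in turn, against 5, 5, 2, 2, 3 and 1, naming only counts that moved by over 1.5 times. Values as deposited gave 3, 2, 5, 1 and 1 in the first 5. They gave 6 for propiconazole against triadimefon at day 4, where the share of all genes called was not counted. Median centring gave 3, 3, 0, 1 and 1 in the first 5. Arrays of the same experiment alone gave 0, 0, 0, 0, 5 and 2, and with the array of high 3′ signal also left out, chosen after seeing the data, 0, 3, 0 and 0 for the conazoles. The 2 groups alone gave 0 for propiconazole and 0 for triadimefon at day 4, and 3 for phenobarbital at day 30. All probe sets gave 1 and 1 for triadimefon. Without the array of high 3′ signal, propiconazole at day 4 had 3 and propiconazole against triadimefon at day 30 had 1.

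Counts over all genes moved as follows, against 2463, 1917, 665, 958, 120 and 85. Values as deposited gave 1065 for propiconazole at day 30, and 1662 and 396 for triadimefon, with the median gene shifted by -0.16 (223 higher, 2361 lower) for propiconazole at day 4 and 0.17 (1550 higher, 112 lower) for triadimefon at day 4. Median centring gave 509 for triadimefon at day 30, and its split at propiconazole day 4 was 588 higher and 1202 lower. Same-experiment arrays gave 224, 302, 18, 36, 766 and 305, and without the array of high 3′ signal 211, 803, 125 and 188 for the conazoles. The 2 groups alone gave 6, 541, 1, 111, 330 and 276. All probe sets gave 4059, 2894, 1040, 191 and 128 (triadimefon at day 30 stayed within range). Leaving out only the array of high 3′ signal gave 1270 and 1699 for triadimefon and 247 for phenobarbital at day 4.

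Leaving out 1 array at a time gave 3 to 6, 3 to 4, 1 to 2, 1 to 2, 1 to 3 and 1 called of the 9 genes, and 1526 to 3856, 1277 to 1772, 215 to 850, 502 to 895, 65 to 141 and 52 to 73 of all genes. For propiconazole against triadimefon at day 4 and for the propiconazole minus phenobarbital change at day 4 it gave 0 to 2, for the propiconazole change between days 0 to 1, and 0 for the other 6 differences.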

Other observations

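The Fmo5 probe set 1440899_at split the arrays in a way that the treatment groups did not follow. It was below background on 2 of 3 propiconazole, 1 of 3 triadimefon and 1 of 3 control arrays at day 4 of the conazole experiment, and on 1 of 3 arrays in each of the 3 groups at day 30. In the phenobarbital experiment it was below background on 0 of 5 treated and 1 of 5 control arrays at day 4, and on 2 of 5 treated and 1 of 5 control arrays at day 30. No array lay between 5.74 and 8.32. The cause was not tested.

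Of the receptors named for context, Ahr, the aryl hydrocarbon receptor gene, was called higher in all 6 comparisons, by 0.67 to 1.43, and its triadimefon calls were lost on conazole arrays alone (adjusted p = 0.32 at day 4 and 0.22 at day 30). Nr1i3, the gene of the receptor CAR, was called lower with propiconazole at day 4 (-2.20, adjusted p = 0.012, and 0.18 on conazole arrays alone). Without the array of high 3′ signal that Nr1i3 difference was -0.66 (adjusted p = 0.05), and the day 30 difference of -1.51 had an adjusted p of 5e-06, against 0.097 with the array. Nr1i2, the gene of the receptor PXR, was not called in any of the 6 comparisons. Cyp3a11, a P450 gene, was not called in any of the 6 comparisons with control. Its group means were 13.01 to 13.18 in control and treated livers alike, and whether so bright a probe set can show a rise was not tested.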
